A study of Mus musculus with 10 samples.

Results

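The genes described here encode 6 proteins of the primary (azurophil) granule: Mpo, Elane, Prtn3, Ctsg, Lyz2 and Srgn. They were taken by name and found in the count table through their Ensembl identifiers, so all 6 of 6 were present among 52636 genes and all 6 were abundant enough to be among the 13469 tested. They were read in bulk RNA-seq libraries of nonclassical (patrolling) monocytes that had been sorted out of murine bone marrow. The 5 WT libraries carry intact Lair1 (LAIR1+/+) and the 5 LAIRKO libraries lack it (LAIR1-/-). The product of Lair1 is a collagen-binding receptor that restrains leukocyte activation. Per the labels, no treatment was given, 5000 to 10000 cells were collected at a sort purity of 98%, and libraries were made by a low-input RNA method. The sources used here do not give the strain, age and sex of the mice, the design of the Lair1 allele or whether each library came from its own mouse, so the spread behind each p-value is that among libraries and may be technical.

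Primary granules are formed at the promyelocyte stage of granulocyte development and in early monocyte precursors, and their contents are stored rather than remade as cells mature. Myeloperoxidase makes hypochlorous acid, and 3 serine proteases (neutrophil elastase, proteinase 3 and cathepsin G) digest proteins of microbes and matrix. Lysozyme cleaves bacterial cell walls, and serglycin is the proteoglycan core on which basic granule proteins are packed. Transcription of the peroxidase and protease genes is known to be switched off in maturing cells, whereas mature monocytes and macrophages go on expressing lysozyme and serglycin.

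The genotype labels were checked on Lair1 itself (GRCm38 chromosome 7, 4003402 to 4063204, minus strand). It had 4230 to 5579 counts in the WT libraries. The LAIRKO libraries had 3, 10, 4, 0 and 0 counts in replicates 1 to 5, and in replicates 4 and 5 a count of 0 leaves room for 0.234 and 0.217 CPM, taking 3 counts as the limit (CPM are counts scaled to a common library size). Total counts per library were 12106209 to 15356924. Of 12 nonclassical monocyte markers, among them Nr4a1, Cx3cr1, Ace and Treml4, none was at 0 in any group, and their summed level was 12345 to 13604 CPM in WT and 8972 to 14072 CPM in LAIRKO. The lowest sums were those of LAIRKO replicates 4 and 5.

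The 6 genes fell into a group of 4 that were higher in LAIRKO and a pair that were not. Mpo, Elane, Prtn3 and Ctsg rose 3.27-fold to 6.57-fold (edgeR quasi-likelihood test, adjusted p under 0.05), where 5.11% of all tested genes were called higher and 6.79% were called in either direction. Lyz2 and Srgn had fold changes below 0 on the log2 scale that did not pass, and no member was called lower, where 1.68% of tested genes were. All 4 raised genes had no overlap between the groups, which held for 5.61% of tested genes in that direction and 7.66% in either. Lyz2 and Srgn go against a label of precursor genes, since both were abundant in the WT monocytes. Mpo was also readily detected there, at a mean of 518 CPM in WT. In bulk RNA, more cells that carry a transcript and more transcript per cell cannot be told apart.

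**Figure D1:**
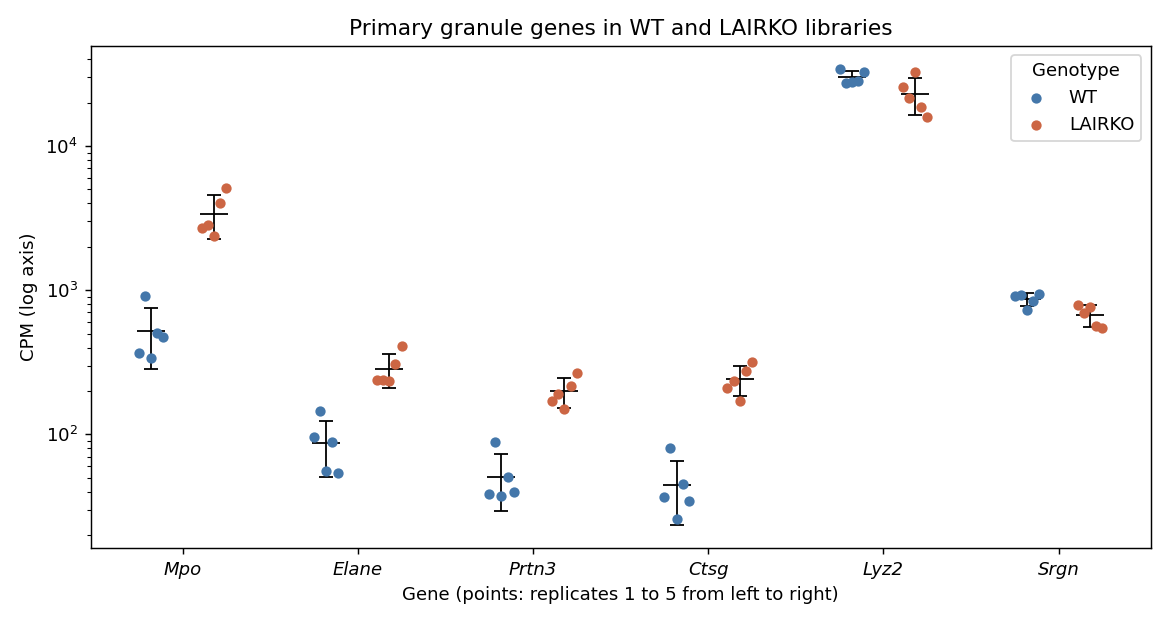
CPM on a log axis for the 6 genes, with 1 point per library (replicates 1 to 5 from left to right) and the mean with its SD as a bar for 5 WT and 5 LAIRKO libraries. The LAIRKO points of Mpo, Elane, Prtn3 and Ctsg lie above every WT point, and those of Lyz2 and Srgn overlap the WT points.

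Stretches of 250 bases before the RefSeq start sites (GRCm38.p6) of the raised genes and of Lyz2 are shown because these genes differ in response and yet share a short sequence there. Capitals mark AGGAAGT, or its reverse complement, a sequence of the kind bound by ETS family factors such as PU.1, the product of Spi1. The Mpo stretch is chr11:87793534-87793783 on the plus strand, Elane chr10:79886062-79886311 plus, Prtn3 chr10:79879417-79879666 plus, Ctsg chr14:56102575-56102824 minus and Lyz2 chr10:117282273-117282522 minus, each written 5′ to 3′ in the direction of its gene.
Mpo: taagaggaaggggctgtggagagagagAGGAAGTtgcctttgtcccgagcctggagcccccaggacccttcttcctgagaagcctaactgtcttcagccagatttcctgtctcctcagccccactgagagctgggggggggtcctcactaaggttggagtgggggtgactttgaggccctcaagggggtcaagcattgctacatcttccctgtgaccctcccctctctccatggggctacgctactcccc
Elane: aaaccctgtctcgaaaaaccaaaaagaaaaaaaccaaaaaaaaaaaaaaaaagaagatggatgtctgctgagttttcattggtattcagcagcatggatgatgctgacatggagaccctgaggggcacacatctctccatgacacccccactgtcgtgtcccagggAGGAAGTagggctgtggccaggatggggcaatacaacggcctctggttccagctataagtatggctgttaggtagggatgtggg
Prtn3: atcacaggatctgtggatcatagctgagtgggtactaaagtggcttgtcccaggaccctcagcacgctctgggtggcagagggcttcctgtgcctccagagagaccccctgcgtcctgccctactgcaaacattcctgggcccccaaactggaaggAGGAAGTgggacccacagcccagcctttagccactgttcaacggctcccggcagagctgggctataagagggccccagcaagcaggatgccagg
Ctsg: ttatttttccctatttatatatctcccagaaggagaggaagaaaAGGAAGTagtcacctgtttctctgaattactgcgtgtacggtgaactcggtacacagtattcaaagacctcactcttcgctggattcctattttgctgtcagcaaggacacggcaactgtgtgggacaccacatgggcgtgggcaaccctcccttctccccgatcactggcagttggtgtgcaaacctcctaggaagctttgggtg
Lyz2: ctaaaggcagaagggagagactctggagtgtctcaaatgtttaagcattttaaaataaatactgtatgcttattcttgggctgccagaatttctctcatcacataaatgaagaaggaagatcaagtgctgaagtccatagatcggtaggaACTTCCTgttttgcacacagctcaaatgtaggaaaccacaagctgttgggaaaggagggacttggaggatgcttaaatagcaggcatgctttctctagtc

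AGGAAGT was found in its written direction in Mpo, Elane, Prtn3 and Ctsg, beginning 223, 84, 94 and 206 bases before the start. In Lyz2 it was found as the reverse complement, 100 bases before the start, and neither of the 2 Srgn start sites had it in either direction. The search covered both strands of 300 bases per start site (250 before it and 50 from it onward), and 9.35% of all 32851 such RefSeq windows and 9.91% of the 11856 windows of tested genes held the sequence. Elane and Prtn3 also shared AACGG, the core of a Myb-type site, at 50 and 55 bases before the start (17.4% of all windows, 23.1% of those of tested genes). TATAA was in 4 member windows: Elane and Prtn3 at 31 and 32 bases before the start, Ctsg as the reverse complement at 236 and 1 Srgn window at 98 (24.9% of all windows, 13.5% of those of tested genes). Neither AACGG nor TATAA overlapped AGGAAGT in these windows. TTNNGNAA, a C/EBP-type sequence, was in Lyz2 and 1 Srgn window and in 40.7% of all windows and 32.1% of those of tested genes. The sequences were chosen after the promoters had been read, and a match is a description of the letters only.

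Mpo (ENSMUSG00000009350, GRCm38 chromosome 11, 87793581 to 87804413, plus strand) encodes myeloperoxidase, the haem enzyme that is the main protein of the granule. Its level was 365, 915, 336, 502 and 472 CPM in WT replicates 1 to 5 and 2681, 2826, 2362, 4039 and 5099.8 CPM in LAIRKO replicates 1 to 5. Every LAIRKO library was above every WT library, with WT replicate 2 highest among the WT and LAIRKO replicates 4 and 5 highest of all. The mean went from 518 ± 233 to 3401 ± 1142 CPM (SD, n = 5 each; log2 fold change 2.71 ± 0.29 SE, edgeR adjusted p = 3.48e-04). By mean CPM, without regard to gene length, Mpo ranked 274 among all genes of the table in WT and 15 in LAIRKO. Without LAIRKO replicates 4 and 5 its log2 fold change was 2.34 (edgeR adjusted p = 0.00252).

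Ctsg (ENSMUSG00000040314, chromosome 14, 56099881 to 56102574, minus strand) encodes cathepsin G, a serine protease with chymotrypsin-like specificity. It stood at 36.9, 79.7, 25.7, 45.0 and 34.2 CPM in WT replicates 1 to 5, and at 208, 234, 169, 273 and 317 CPM in LAIRKO. The lowest LAIRKO library had more than the highest WT library, which was again WT replicate 2. Ctsg rose by 2.44 ± 0.27 on the log2 scale (SE; edgeR adjusted p = 4.06e-04), with means of 44.3 ± 20.97 and 240.4 ± 57.3 CPM (SD, n = 5 each).

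Prtn3 and Elane encode the elastase-like proteases and lie 11.8 kb apart on chromosome 10, start to start. Prtn3 (ENSMUSG00000057729, 79874476 to 79883174, plus strand) was at 38.5, 88.5, 37.3, 50.3 and 39.9 CPM in WT replicates 1 to 5 and at 171, 189.7, 149, 217 and 267 CPM in LAIRKO. Elane (ENSMUSG00000020125, 79886247 to 79888215, plus strand) was at 96.3, 144, 55.5, 88.0 and 53.4 CPM in WT and at 237, 237, 234, 308 and 412 CPM in LAIRKO. For both genes all 5 LAIRKO libraries lay above all 5 WT libraries, and WT replicate 2 was the highest WT library. Prtn3 rose by a log2 fold change of 1.97 ± 0.24 (SE, edgeR adjusted p = 6.61e-04) and Elane by 1.71 ± 0.26 (edgeR adjusted p = 0.00214). Elane had the smallest fold change of the raised genes, and its rise was 1.43 without LAIRKO replicates 4 and 5 (edgeR adjusted p = 0.0185).

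Lyz2 (ENSMUSG00000069516, chromosome 10, 117277331 to 117282321, minus strand), the myeloid lysozyme gene, had the highest mean CPM of the whole table in both genotypes. WT replicates 1 to 5 had 34400.2, 27611, 27860.2, 28332 and 32563 CPM, and LAIRKO replicates 1 to 5 had 25896, 21416, 32624, 18772 and 15819 CPM. LAIRKO replicate 3 lay within the WT range, the other LAIRKO libraries lay below it, and replicates 4 and 5 were lowest. The log2 fold change of -0.40 ± 0.17 (SE) did not pass (edgeR adjusted p = 0.191). Without LAIRKO replicate 3 it was -0.56 and passed (edgeR adjusted p = 0.0202), and without LAIRKO replicates 4 and 5 it was -0.18 (edgeR adjusted p = 0.500). Lyz1, a near-identical gene whose start lies 10.5 kb away, had 202 to 849 counts per library against 218328 to 492058 for Lyz2, and reads of the copies could be divided between them. Adding both genes' counts, a step chosen after seeing the data, left the log2 fold change at -0.40 (edgeR adjusted p = 0.190).

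Srgn (ENSMUSG00000020077, chromosome 10, 62493833 to 62527451, minus strand) encodes serglycin, which holds proteases in the granule by its glycosaminoglycan chains. Its level was 914, 919, 725, 839 and 945 CPM in WT replicates 1 to 5 and 789.9, 697, 766, 561 and 546 CPM in LAIRKO replicates 1 to 5. The groups overlapped through WT replicate 3, and LAIRKO replicates 4 and 5 were again lowest. The log2 fold change of -0.37 ± 0.12 (SE) did not pass in edgeR (adjusted p = 0.0947), whereas DESeq2 called it lower (log2 fold change -0.38, adjusted p = 0.0343).

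The 5 LAIRKO libraries took the same order for each of the 4 raised genes. Replicate 5 was highest, followed by replicates 4, 2, 1 and 3. For Elane, replicates 2, 1 and 3 were nearly tied, at 237.3, 237.0 and 234.0 CPM. Lyz2 ran in exactly the opposite order in these libraries, with replicate 3 highest and replicate 5 lowest, and Srgn also had replicates 4 and 5 lowest. In WT, replicate 2 was highest for all 4 raised genes, and the lowest library was replicate 3 for Mpo, Prtn3 and Ctsg and replicate 5 for Elane. The highest library exceeded the lowest 2.38-fold to 3.11-fold in WT and 1.76-fold to 2.16-fold in LAIRKO for these 4 genes. For Lyz2 the spread was 1.25-fold in WT and 2.06-fold in LAIRKO, and for Srgn 1.304-fold and 1.45-fold.

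**Figure D2:**
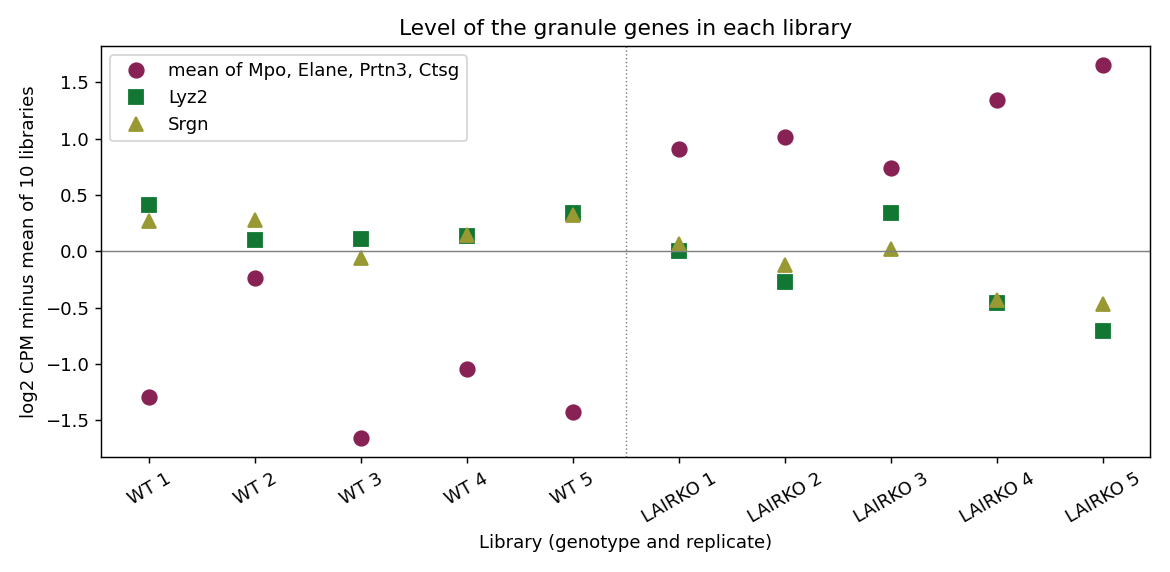
log2 CPM of each library minus the mean over all 10 libraries, for the mean of Mpo, Elane, Prtn3 and Ctsg (circles), for Lyz2 (squares) and for Srgn (triangles). The circles run from -1.66 in WT replicate 3 to 1.66 in LAIRKO replicate 5, while Lyz2 is lowest, at -0.71, in LAIRKO replicate 5.

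Levels can be compared between the genes only per length, here as CPM per kilobase of annotated exon. In WT the order was Lyz2 at 22913 ± 2369, Srgn at 395 ± 40.7, Mpo at 151 ± 67.9, Elane at 88.9 ± 37.6, Ctsg at 42.9 ± 20.3 and Prtn3 at 29.4 ± 12.5 CPM per kilobase (SD, n = 5). Mpo and Elane overlapped in their ranges, as did Elane with Ctsg and Ctsg with Prtn3, whereas Lyz2 and Srgn stood clear of each other and of the rest. In LAIRKO the order was Lyz2 at 17405 ± 4996, Mpo at 993 ± 334, Srgn at 306 ± 51.7, Elane at 290.4 ± 78.5, Ctsg at 233 ± 55.4 and Prtn3 at 114.7 ± 26.3 CPM per kilobase. There Mpo had passed Srgn in every library, and Srgn, Elane and Ctsg overlapped in their ranges.

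The raised genes did not keep their proportions to Mpo, and this was tested on read ratios within each library, which do not depend on library scaling. Elane had 26.4, 15.7, 16.5, 17.5 and 11.3 reads per 100 Mpo reads in WT replicates 1 to 5 and 8.84, 8.40, 9.90, 7.63 and 8.08 in LAIRKO. All LAIRKO ratios of Elane were below all WT ratios, with WT replicate 1 far above the other libraries. The LAIRKO mean of the log2 ratio minus the WT mean was -0.98 for Elane (two-sided exact permutation p = 0.00794, adjusted p = 0.00992 over 5 ratios). Prtn3 had 8.44 to 11.1 reads per 100 Mpo reads in WT and 5.23 to 6.71 in LAIRKO, again without overlap (difference in log2 ratio -0.73, exact permutation p = 0.00794, adjusted p = 0.00992). The smallest p that 5 libraries against 5 can give is 0.00794. The 5 ratios include those of Lyz2 and Srgn, whose small p-values lower the adjusted p of Elane and Prtn3.

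Ctsg stayed closest to Mpo. It had 7.23 to 10.1 reads per 100 Mpo reads in WT and 6.22 to 8.29 in LAIRKO, and the ranges overlapped (difference in log2 ratio -0.24, exact permutation p = 0.0794, adjusted p = 0.0794). The ratio of Ctsg to Mpo passed without WT replicate 5 (difference -0.29, exact permutation adjusted p = 0.0476) and with 10 counts in place of 1 added before the log (-0.26, adjusted p = 0.0476). The ratios of Lyz2 and Srgn to Mpo were lower in LAIRKO by 3.19 and 3.13 on the log2 scale (exact permutation adjusted p = 0.00992 for each). Mpo itself rose by 2.71 without overlap and neither gene rose, so this outcome was fixed in advance. It does not show a fall of Lyz2 or Srgn. Between the proteases, the log2 ratio of Prtn3 to Ctsg had a mean of 0.23 ± 0.18 in WT and -0.27 ± 0.06 in LAIRKO (SD, n = 5 each), a description with no test.

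**Figure D3:**
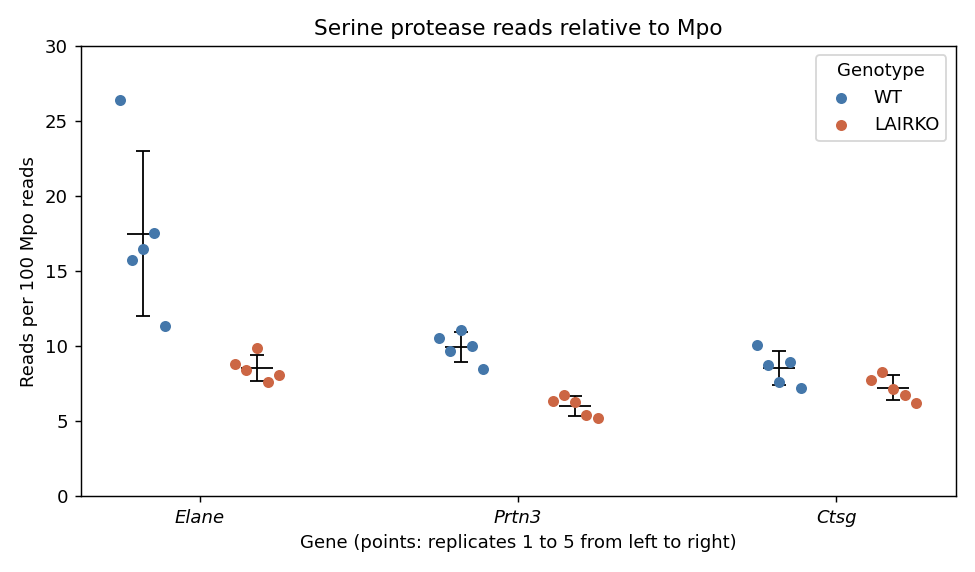
Reads of Elane, Prtn3 and Ctsg per 100 reads of Mpo in each library (points, replicates 1 to 5 from left to right), with the mean and SD as bars for 5 WT and 5 LAIRKO libraries. Every LAIRKO point of Elane and Prtn3 lies below every WT point, and the Ctsg points of the groups overlap.

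Together the 6 genes took 2.71% to 3.39% of all counts in WT and 2.45% to 3.57% in LAIRKO, and the means of 3.03% ± 0.296 and 2.88% ± 0.452 (SD, n = 5 each) differed by less than the spread between libraries (exact permutation p = 0.548). Mpo, Elane, Prtn3 and Ctsg alone took 0.0673% ± 0.0309 in WT and 0.435% ± 0.154 in LAIRKO. These 4 were grouped by their rise in the same libraries, so no test is given for their share. Without LAIRKO replicates 4 and 5 the difference for all 6 genes changed sign, from -0.151 to 0.0941 percentage points (exact permutation p = 0.714). Lyz2 made up 92.8% to 96.0% of the reads of the 6 genes in WT and 70.4% to 89.9% in LAIRKO.

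Annotated genes overlap the exons of Mpo and Prtn3 on the other strand, and no source used here gives the strand setting of the counting, so reads of such pairs cannot be told apart. Gm11505 shares 512 exon bases with Mpo, 69.5% of its own exon length. It had 85 to 212 counts in WT and 692 to 1345 in LAIRKO, against 4364 to 10872 and 35631 to 70387 for Mpo, with a log2 fold change of 2.74 ± 0.29 (edgeR adjusted p = 3.48e-04). Plppr3, a gene best known from neurons, shares 159 exon bases with an upstream exon of Prtn3. They are 9.2% of the exon length of Prtn3 and 3.6% of that of Plppr3. The RefSeq start of Prtn3 lies 5191 bases downstream of the GENCODE start of the gene, and Plppr3 begins next to the latter. Plppr3 rose by 2.21 ± 0.24 (log2 fold change and SE, edgeR adjusted p = 3.48e-04), with means of 24.0 ± 9.58 and 110.9 ± 23.4 CPM. Other genes named here also share exon bases with an annotated partner. Prss57 shares 40.7% of its exon length with the scarce Fstl3, and Itgam shares 68.7% with Gm49368 on the same strand. Gm49368 had a mean of 9.8 counts per library against 2023 for Itgam. Glb1 overlaps Tmppe, which had a mean of 604.6 counts per library against 573.9 for Glb1. Plppr3 shares a further 251 exon bases with Ptbp1 on the other strand (means of 947.8 and 991.4 counts), and Abhd14a, named below for its pattern, shares 207 with Abhd14b (99.2 and 58.9 counts).

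Further genes near Mpo and the protease pair were also higher. Of 63 other annotated genes starting within 100 kb of a member, 27 were tested, 5 were called higher and 0 lower. Over all tested genes, 5.11% were called higher and 1.68% lower. The 5 included Gm11505 and Plppr3, which share exon bases with Mpo and Prtn3. Tspoap1, which encodes a protein that binds RIM proteins and the mitochondrial translocator protein, starts 33.0 kb upstream of Mpo on the same strand. It had 0.335 to 2.48 CPM in WT and 9.48 to 17.3 CPM in LAIRKO (log2 fold change 3.19 ± 0.39, edgeR adjusted p = 6.81e-04), a larger fold change than that of Mpo. Replicate 3 was the lowest LAIRKO library for both genes, while replicate 5, the highest for Mpo, was second lowest for Tspoap1 at 10.9 CPM. Prss57, which encodes the granule protease NSP4 and starts 95.3 kb from Elane, rose from 4.37 ± 1.98 to 13.4 ± 5.58 CPM (log2 fold change 1.61, edgeR adjusted p = 0.0118). Wdr18 rose by 0.42, and 6 of the 10 one-library-out fits did not call it (edgeR adjusted p up to 0.0757). Genes in the same stretch as Plppr3, Elane and Wdr18 were not all called. The log2 fold change was 1.74 for E130317F20Rik, 0.26 for Ptbp1, 0.13 for Med16 and -0.21 for R3hdm4 (edgeR adjusted p = 0.0665, 0.112, 0.505 and 0.267), genes named after their values were seen. None of the 2, 3 and 4 tested neighbours of Ctsg, Lyz2 and Srgn passed.

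**Figure D4:**
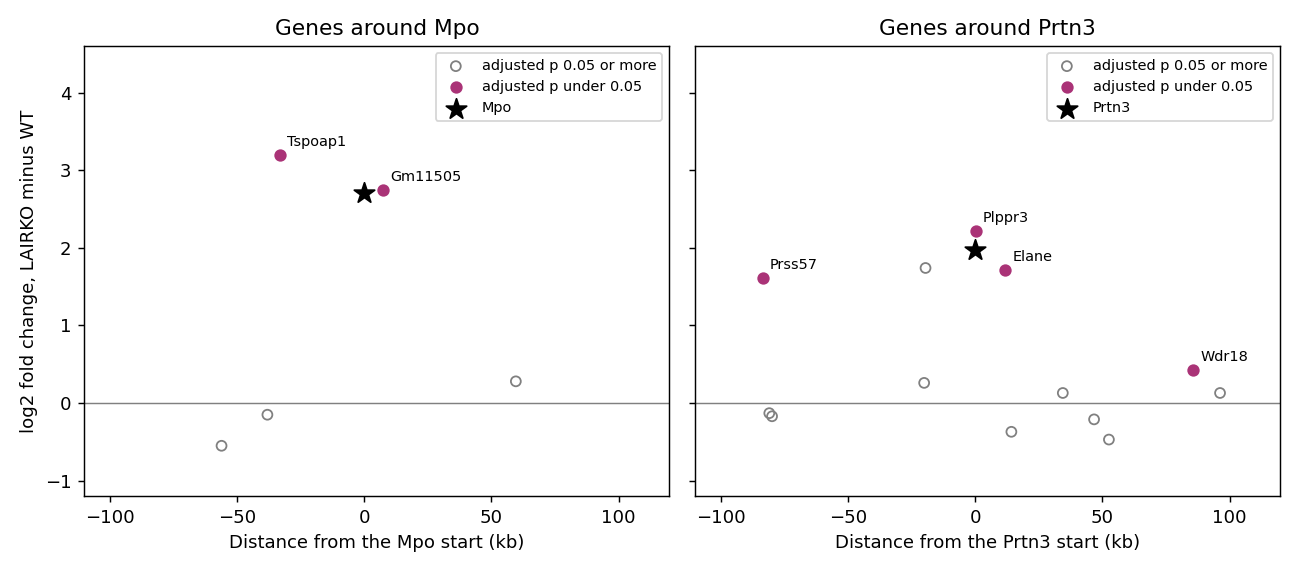
log2 fold change (LAIRKO minus WT) of tested genes against the distance of their start from the start of Mpo (left) or Prtn3 (right), in kb; filled points passed the threshold, open points did not, and the star is the named member. Tspoap1 and Gm11505 beside Mpo, and Plppr3, Elane and Prss57 beside Prtn3, lie above 1.5, as does the open point of E130317F20Rik at 1.74.

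Other listed granule genes were partly higher. Of 12 listed further granule contents 7 were tested and 5 were higher, 0 lower, where 5.11% of all tested genes were called higher. Their median log2 fold change was 1.38, against -0.0018 over all tested genes. The list was mixed and included eosinophil granule genes such as Prg2. Cst7, cystatin F, an inhibitor of granule cysteine proteases, rose from 7.82 ± 3.03 to 29.8 ± 8.68 CPM (log2 fold change 1.93 ± 0.29, edgeR adjusted p = 0.00200). Ms4a3, a membrane protein of granulocyte and monocyte precursors, rose by 1.38 (edgeR adjusted p = 0.0174), and both it and Prss57 lost their calls without LAIRKO replicates 4 and 5 (adjusted p = 0.104 and 0.0804) and without WT replicates 1 and 4 (0.102 and 0.0974). Prg2, the eosinophil major basic protein, rose by 4.42 with values of 2.78 to 85.3 CPM in LAIRKO and 0.542 to 3.03 in WT (edgeR adjusted p = 0.0111), and it did not pass with limma voom and library quality weights (adjusted p = 0.113) or without WT replicates 1 and 4 (0.100). Without LAIRKO replicate 4 its log2 fold change was 3.39. Lyz1 (-0.93) and Fcnb (0.47), named after their values were seen, did not pass (edgeR adjusted p = 0.0849 and 0.491), though DESeq2 called Lyz1 lower.

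Of 8 haem synthesis enzymes 2 were higher and 0 lower (median log2 fold change 0.11), where 5.11% of all tested genes were called higher and 1.68% lower. Their summed level was 357 to 441 CPM in WT and 444 to 529.9 CPM in LAIRKO, without overlap. This sum includes Alas1, so it does not show a rise of the other enzymes. Alas1, the rate-limiting enzyme of the pathway that supplies the haem of myeloperoxidase, rose from 99.1 ± 9.73 to 174 ± 24.7 CPM (log2 fold change 0.81 ± 0.11, edgeR adjusted p = 0.00144), with no overlap between groups. Alad, the next enzyme, rose by 0.57 (edgeR adjusted p = 0.0298) and 7 of the 10 one-library-out fits did not call it (adjusted p up to 0.0796). Of 12 processing and chaperone genes 1 was higher and 1 lower (median -0.01). Calr, a chaperone of newly made myeloperoxidase, rose by 0.45 ± 0.10 (SE, edgeR adjusted p = 0.0126), and without WT replicates 1 and 4 it did not pass (0.0739). Ctsc, the dipeptidyl peptidase that activates granule serine proteases, had a log2 fold change of -0.60 ± 0.14 (edgeR adjusted p = 0.0252), and 6 of the 10 one-library-out fits did not call it (adjusted p up to 0.0695). Of 11 tested proteoglycan chain synthesis genes, which build the chains of serglycin, 0 were called by edgeR, DESeq2 or limma voom (median -0.20; 2 had an unadjusted edgeR p under 0.05), with Csgalnact2 at -0.26 and B3gat3 at -0.31 (edgeR adjusted p = 0.130 and 0.187).

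Among 8 tested protease inhibitors 2 were higher and 0 lower, although the median was -0.41. Over all tested genes, 5.11% were called higher and 1.68% lower. Serpinb1a, the cytosolic inhibitor of elastase, cathepsin G and proteinase 3, rose from 32.7 ± 12.7 to 85.8 ± 18.6 CPM (log2 fold change 1.39 ± 0.24, edgeR adjusted p = 0.00405). Slpi, a secreted inhibitor of elastase and cathepsin G, rose from 31.5 ± 3.18 to 59.8 ± 11.4 CPM (0.93 ± 0.15, edgeR adjusted p = 0.00259). Both genes had no overlap between the groups. Primary granules share membrane proteins and hydrolases with lysosomes. Of 22 genes for these proteins 1 was higher and 1 lower in edgeR (median -0.27), where edgeR called 6.79% of all tested genes. They were Glb1 at 0.45 and Npc2 at -0.43 (edgeR adjusted p = 0.0306 and 0.0406). DESeq2 and limma voom each called 1 higher and 4 lower. For Glb1 and for Npc2, 7 of the 10 one-library-out edgeR fits gave no call (adjusted p up to 0.0799 and 0.102).

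Of 18 transcription factors of granulocyte and monocyte precursors 4 were higher and 0 lower (median 0.09), where 5.11% of all tested genes were called higher. Myb, a factor of immature haematopoietic cells that acts on several granule gene promoters, rose from 23.8 ± 8.81 to 102 ± 40.5 CPM (log2 fold change 2.10 ± 0.32, edgeR adjusted p = 0.00200). Gfi1, a repressor needed for neutrophil development, was scarce and rose from 1.02 ± 0.296 to 5.01 ± 2.66 CPM (2.28 ± 0.40, edgeR adjusted p = 0.00486). Myc, a factor of growth and division, rose by 2.06 and Meis1 by 0.71 (edgeR adjusted p = 0.00192 and 0.0375), and 6 of the 10 one-library-out fits did not call Meis1 (adjusted p up to 0.0966). The C/EBP and PU.1 genes, named after their values were seen, did not pass in edgeR: Cebpa had a log2 fold change of -0.01, Cebpe of 0.31, Cebpb of -1.03 and Spi1 of -0.33 (edgeR adjusted p = 0.995, 0.673, 0.359 and 0.0849). DESeq2 called Spi1 lower.

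**Figure D5:**
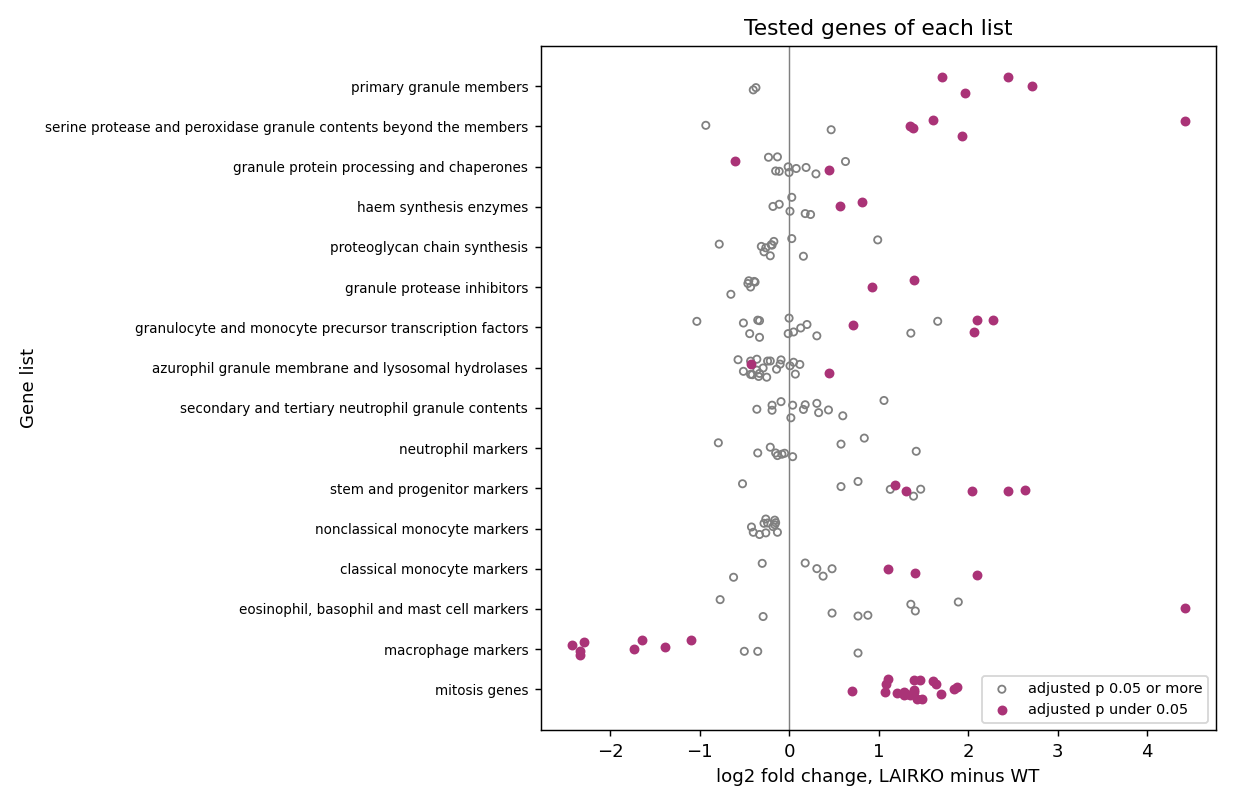
log2 fold change (LAIRKO minus WT) of each tested gene, by list; filled points passed an adjusted p of 0.05 and open points did not, and vertical scatter within a row only separates the points. All 20 mitosis genes and 4 of the 6 granule genes are filled to the right of 0, and the lists of secondary granule contents and neutrophil markers hold only open points.

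Contents of secondary and tertiary granules are made by neutrophils after the primary ones. Of 13 tested genes 0 passed in edgeR, DESeq2 or limma voom (median 0.16), where edgeR called 6.79% of all tested genes, and 1 of the 13 had an unadjusted edgeR p under 0.05. Hp and Itgam, with the smallest p-values, had log2 fold changes of -0.36 and -0.19 (edgeR adjusted p = 0.153 and 0.287). Of 11 tested neutrophil markers 0 passed with any of the 3 tools (median -0.08; 2 had an unadjusted edgeR p under 0.05), with Ly6g at 1.42 and Padi4 at 0.58 (edgeR adjusted p = 0.143 and 0.164). Their summed level was 854 to 1666 CPM in WT and 944 to 1188 CPM in LAIRKO.

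Markers of immature and dividing cells moved with the granule genes. Of 11 tested stem and progenitor markers 5 were higher and 0 lower, where edgeR called 5.11% of all tested genes higher and 1.68% lower. The summed level of these markers was 161 to 283 CPM in WT and 418 to 988 CPM in LAIRKO. All 20 mitosis genes were higher, with sums of 450.4 to 636 CPM in WT and 901 to 1709.7 CPM in LAIRKO. In LAIRKO both sums were highest in replicates 5 and 4 and lowest in replicate 3, as were the 4 raised granule genes, and in WT both were highest in replicate 2. Of 9 tested classical monocyte markers 3 were higher and 0 lower in edgeR (median 0.38), while DESeq2 called 3 higher and 1 lower. F13a1 and Gria3 were among those higher (log2 fold changes 2.10 and 1.41, edgeR adjusted p = 3.48e-04 and 6.61e-04). The sums of the classical markers overlapped, at 941 to 1553 CPM in WT and 1240 to 1573.5 CPM in LAIRKO. Of 9 tested eosinophil, basophil and mast cell markers 1 passed in edgeR, Prg2, while DESeq2 called 3 higher and limma voom 2, with sums of 17.8 to 94.7 CPM in WT and 47.1 to 161 CPM in LAIRKO. Of 11 tested macrophage markers 8 were lower and 0 higher, among them C1qa (-2.33) and Mertk (-2.43), and their sums were 1600 to 2129 CPM in WT and 885 to 1106 CPM in LAIRKO. Of the 12 nonclassical monocyte markers 0 passed in edgeR or limma voom (median -0.25; 4 had an unadjusted edgeR p under 0.05), and DESeq2 called 1 lower, Itgax. No marker of these cell type lists was at 0 in all 10 libraries. The part of any of these cell types in the granule gene values was not tested.

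The genes whose pattern over the 10 libraries was most like the mean of Mpo, Elane, Prtn3 and Ctsg were Abhd14a, Cd34, Dnph1, F13a1, Plppr3, Kif2c, Adgrg1 and Phgdh. Likeness was the root mean square difference of log2 CPM after each gene was centred on its own mean. It was 0.23 to 0.33 for these 8 genes, against a median of 1.25 over all tested genes. Prtn3 and Ctsg at 0.15, Mpo at 0.28 and Elane at 0.30 are part of that mean, so their low values were partly fixed in advance. F13a1, the coagulation factor XIII chain, had 57.5 to 109 CPM in WT and 259 to 513 CPM in LAIRKO. Cd34, a surface protein of stem and progenitor cells, had 26.03 to 67.8 CPM in WT and 133 to 317 CPM in LAIRKO, and like the granule genes it was highest in LAIRKO replicate 5 and, within WT, in replicate 2. Srgn and Lyz2, at 1.41 and 1.49, were less like the raised genes than the median tested gene was, which restates that they did not rise.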

How the data were processed

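Bulk RNA sequencing of sorted nonclassical monocytes was available for 5 WT and 5 LAIRKO libraries. GSNAP and the build GRCm38.p5 are named in the submitters' processing notes, and the deposited table holds raw read counts per Ensembl gene with no normalization. The sources used here name no counting tool, annotation release or strand setting. Columns were matched to libraries by the identifier in the sample titles, and 0 were left over. Names, positions and exon lengths came from GENCODE M21 (GRCm38), which matched 52489 of 52636 genes, and promoter windows for all 6 members from RefSeq (GRCm38.p6).

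Counts were tested in R 4.3.3 with edgeR 4.0.16: filterByExpr (minimum count 10, minimum total 15), TMM scaling, glmQLFit and glmQLFTest on genotype, and Benjamini-Hochberg adjustment over 13469 genes with a threshold of 0.05. Log2 fold changes are LAIRKO minus WT, and the SE is the size of the change over the square root of F. CPM uses TMM-scaled library sizes. Read ratios had 1 count added before the log, and likeness 2 counts. Ratios and shares were compared with two-sided exact permutation tests. Alternatives used DESeq2 1.42.0 and limma 3.58.1. The members and gene lists were chosen with earlier results of these data known. Named were the members, up to 4 called genes per list (or the 2 with the smallest p), called or overlapping neighbours and the 8 genes most alike in pattern (mean log2 CPM of at least 1, no predicted genes), with other names marked in the text. The edgeR procedure was tested on simulated data with 200 changed genes. It recovered 32.2% of 1.5-fold, 76.7% of 2-fold and 92.6% of 4-fold changes, so a gene that did not pass may still differ by a small amount. No library repeated another of its group (chi-square per degree of freedom 14.4 to 71.0 between pairs). The values of 1 marker gene are not reported here.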

Additional observations from a re-analysis of the deposited data

Results flagged for a closer look

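WT replicate 2 stood apart from the other WT libraries in several of these genes, its gap to the next library taking up most of the range of the group. It had 915 CPM of Mpo against 502 in the next WT library, 88.5 CPM of Prtn3 against 50.3, 17.8 CPM of Gm11505, the antisense gene within Mpo, against 9.66, and 23.7 CPM of Kit, the stem cell factor receptor, against 8.99. LAIRKO replicate 3 had the lowest Slpi of its group, 39.5 CPM against 62.8 in the next library. In all, 118 groups of 5 libraries were examined in this way and 5 were marked, where chance marks about 5% of groups. Without WT replicate 2 the log2 fold changes were 3.02 for Mpo and 2.26 for Prtn3.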

How the results depend on the processing

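The rises of Mpo, Elane, Prtn3 and Ctsg passed in all 20 alternatives, with log2 fold changes of 2.34 to 3.02, 1.43 to 1.96, 1.74 to 2.26 and 2.20 to 2.76 (adjusted p up to 0.00976, 0.0259, 0.0143 and 0.0112). Lyz2 ranged from -0.56 to -0.29 with 1 library left out and Srgn from -0.44 to -0.31. Lyz2 passed in 1 of 21 alternatives (-0.56, without LAIRKO replicate 3) and Srgn in 1 of 20 (-0.38, DESeq2). With 1 library left out the log2 ratios to Mpo ran from -1.13 to -0.82 for Elane, -0.79 to -0.68 for Prtn3, -0.29 to -0.17 for Ctsg, -3.45 to -2.90 for Lyz2 and -3.34 to -2.90 for Srgn. The ratio of Ctsg was -0.26 with 10 counts added. The difference in the share of all 6 genes ran from -0.324 to -0.0454 percentage points with 1 library left out, was 0.0941 without LAIRKO replicates 4 and 5, and was 0.368 for Mpo, Elane, Prtn3 and Ctsg alone, which leaves out Lyz2. With the replicate number as a block, permutations within pairs cannot give a p below 0.0625, so the ratios to Mpo of -0.98 (Elane), -0.73 (Prtn3), -3.19 (Lyz2) and -3.13 (Srgn) did not pass there.

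The number of changed genes was 914, and 535 to 1170 with 1 library left out: 585 without WT replicate 3, 535 without LAIRKO replicate 4 and 594 without LAIRKO replicate 5. It was 1379 with library totals, which moved the median of all genes to 0.13 and the share of higher calls from 75.3% to 90.1%, 600 with the replicate block, 1516 with DESeq2, 376 without LAIRKO replicates 4 and 5, and 338 without WT replicates 1 and 4; the cause was not tested. Same-numbered libraries did not deviate together (correlations -0.08 to 0.05, and none of the 5 WT libraries was closest to its own number), so the numbers were not treated as pairs. Among 39 other named and called genes, 7 did not pass with the block, and 9 and 11 when those pairs of libraries were left out. No alternative reversed a named gene that had passed. The lowest count of a raised gene was 345, so counting error was small beside the spread between libraries.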
